A study of Mus musculus with 8 samples.

Results

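Alternative activation is the state that macrophages enter under interleukin 4 (IL-4) or interleukin 13 (IL-13), and *Arg1* is its most used marker. Described here are 10 further genes of this program that were listed by name: the receptor chain *Il4ra*, the transcription factors *Stat6*, *Stat3*, *Irf4*, *Klf4* and *Pparg*, and the effector genes *Tgm2*, *Mgl2*, *Retnla* and *Chil3*. Of these 10 genes, 8 had a row among the 18635 rows of the deposited RNA-seq table, and 7 were abundant enough to be tested among 13629 genes. Bone marrow-derived macrophages (BMDMs) from Phgdh fl/fl mice, whose *Phgdh* alleles are floxed and intact, were compared with those of the genotype Phgdh fl/fl Cx3cr1-Cre, which carries the same floxed alleles together with a Cre recombinase expressed from one *Cx3cr1* allele. All 8 cultures were held for 24 h in medium conditioned by AE17 cells, a mouse mesothelioma line, and are called tumor-educated macrophages (TEMs). There were 4 samples of Phgdh fl/fl TEMs, the control, and 4 of Phgdh fl/fl Cx3cr1-Cre TEMs, described by the submitters as biological replicates, with no pairing of samples given, and the marrow donors were 6 to 8 weeks old. No culture without conditioned medium, none with added IL-4 and no Cre control without the floxed alleles was analysed here.

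In the pathway behind these genes, IL-4 binds IL4Rα, which pairs with the common gamma chain (*Il2rg*) or, for IL-4 and IL-13, with IL-13Rα1 (*Il13ra1*). Janus kinases on the receptor tails phosphorylate STAT6, which dimerises, enters the nucleus and binds palindromic sites near genes such as *Arg1*, *Retnla*, *Chil3* and *Mrc1*. KLF4 works together with STAT6, the demethylase encoded by *Kdm6b* acts upstream of *Irf4*, and the nuclear receptors PPARγ and PPARδ couple the program to lipid metabolism. STAT3, reached through the IL-10 and IL-6 receptors, is a separate route to an overlapping state, and PHGDH is the first enzyme of serine synthesis from a glycolytic intermediate.

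The deposited values are normalized counts, that is, reads per gene after division by each library's size factor. Recovered totals were 41998820 to 47027420 reads per control sample and 38219563 to 44149669 per Cx3cr1-Cre sample. The targeted gene *Phgdh* had 119, 129, 117 and 105 normalized counts in the control and 32.6, 35.3, 14.2 and 26.3 with Cre, a log2 fold change of -2.15 (SE 0.21, limma adjusted p = 5.09e-08). Reads of *Phgdh* thus remained in every Cre sample, and *Cx3cr1*, the gene that carries the Cre, also fell (log2 fold change -0.70, SE 0.055, limma adjusted p = 1.87e-09). RNA came from whole cultures, so fewer cells with a transcript and less of it per cell cannot be told apart. All 6 macrophage markers were abundant, with sums of 313293 to 318184 normalized counts per control sample and 297220 to 301193 per Cre sample. Of these, *Fcgr1* (log2 fold change -0.40), *Itgam* (-0.19) and *Adgre1* (-0.084) fell (limma adjusted p of 7.40e-12, 7.03e-06 and 0.00558), while *Cd68*, *Csf1r* and *Mertk* did not pass the test. No row was present for any of the 4 T cell or 4 basophil and mast cell markers, nor for *Epx* of eosinophils, *Ly6g*, *Elane*, *Mpo*, *Camp* and *S100a9* of neutrophils, and 1 of the 4 B cell markers had one, while *S100a8*, the remaining neutrophil marker, had 467 to 575 in the control and 576 to 631 with Cre and the eosinophil markers, nearly all *Ccr3*, summed to 838 to 894 and to 430 to 569. Of the 4 dendritic cell markers *Cd209a* and *Xcr1* had no row, and *Zbtb46* and *Flt3* together summed to 7.24 to 26.7 in the control and 22.9 to 38.6 with Cre; *Zbtb46*, at means of 16.7 and 27.5, did not pass the test (limma adjusted p = 0.0642). Of the 6 fibroblast or mesothelial markers 3 had a row, with sums of 20.3 to 27.0 and 18.7 to 45.7. Among the markers of other cell types *S100a8* rose (log2 fold change 0.23, limma adjusted p = 0.0044) and *Ccr3* fell (-0.88, limma adjusted p = 7.9e-10). *Siglecf* and *Col1a2* did not pass the test. The part of these other cell types in the results was not tested. On the second principal component, with 13.2% of the variance, replicates 1 and 4 of both genotypes lay apart from replicates 2 and 3, and a term for this split, added after the data were seen, changed no call among the 7 genes tested.

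*Retnla*, which encodes the secreted resistin-like molecule RELMα (also known as FIZZ1), and *Chil3*, which encodes the chitinase-like lectin Ym1, are the classical mouse markers beside *Arg1*, and neither had a row by symbol or by Ensembl identifier. Every row of the table held at least 10 reads summed over the 8 samples, so both genes are without a value here and were not analysed. *Retnla* (ENSMUSG00000061100) lies on the plus strand of mm10 at chr16:48842551-48844461 and *Chil3* (ENSMUSG00000040809) on the minus strand at chr3:106147554-106167564. Their promoters are shown because, of the 9 of the 10 genes with a promoter in the RefSeq table (GRCm38.p6, 250 bases before to 50 after each start; *Tgm2* had none), they were the 2 that held a STAT-type palindrome. The letters searched were TTCNNNNGAA, the spacing STAT6 prefers, and TTCNNNGAA, bound by STATs in general; each arm is the reverse complement of the other, so that both strands were covered, and in the sequences printed no base belonged to both. The longer palindrome was found in 6.95% and the shorter in 8.30% of 32851 promoters. Capitals mark the palindrome's arms, and each sequence runs 5′ to 3′ on the gene's strand.
Retnla, chr16:48842444-48842493, plus strand, longer palindrome: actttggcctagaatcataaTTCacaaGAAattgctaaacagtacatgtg
Chil3, chr3:106167708-106167756, minus strand, shorter palindrome: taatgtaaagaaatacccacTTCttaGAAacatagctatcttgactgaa
Il1rn, chr2:24345150-24345199, plus strand, longer palindrome: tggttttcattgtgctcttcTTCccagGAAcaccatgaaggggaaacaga
Clec7a, chr6:129472881-129472930, minus strand, longer palindrome: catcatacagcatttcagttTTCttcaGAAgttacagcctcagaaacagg
Socs3, chr11:117969492-117969540, minus strand, shorter palindrome: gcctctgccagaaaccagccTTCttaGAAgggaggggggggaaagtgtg
The palindrome of *Retnla* starts 145 bases before the RefSeq start and that of *Chil3* 172 bases before it. *Il1rn*, *Clec7a* and *Socs3*, shown beside them, are 3 of the 13 tested genes of the lists below that hold one. All 3 rose with Cre (limma adjusted p under 0.05 over all genes). The tested genes that fell or did not pass are not printed. Over all 99 listed genes, 72 had a promoter in the table and 20 of these held either palindrome in any of their promoters. The percentages above are per promoter and for each palindrome alone, so this count of genes cannot be set against them. Among the 13 genes with a palindrome that were tested, 5 rose (*Tgm1*, *Il1rn*, *Cish*, *Socs3* and *Clec7a*). A further 4 fell (*Irf9*, *Cd36*, *Stat2* and *Irf8*) and 4 did not pass the test. Of all genes tested, 20.8% rose and 20.3% fell. A match of letters is a description of the window and not a binding site.

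Per kilobase of exon, the genes of the IL-4 pathway spanned more than 3 orders of magnitude in the control. *Stat6* was the most abundant of the 8 genes with a row, with 62.4 reads per kilobase of exon and per 1000000 reads counted (RPKM, computed from the recovered reads), followed by *Tgm2* with 43.2, *Il4ra* with 19.4 and *Stat3* with 15.4. *Pparg* (5.03) and *Klf4* (4.96) lay close together, and their samples overlapped over both genotypes (4.29 to 5.28 and 4.55 to 5.51). *Irf4* (0.166) and *Mgl2* (0.0246) were low. Of the partner chains, *Il2rg* (51.0) stood above *Il4ra* and *Il13ra1* (2.16) below it, and of the kinases *Jak1* (39.95) was the most abundant and *Jak3* (4.36) the least.

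**Figure D1:**
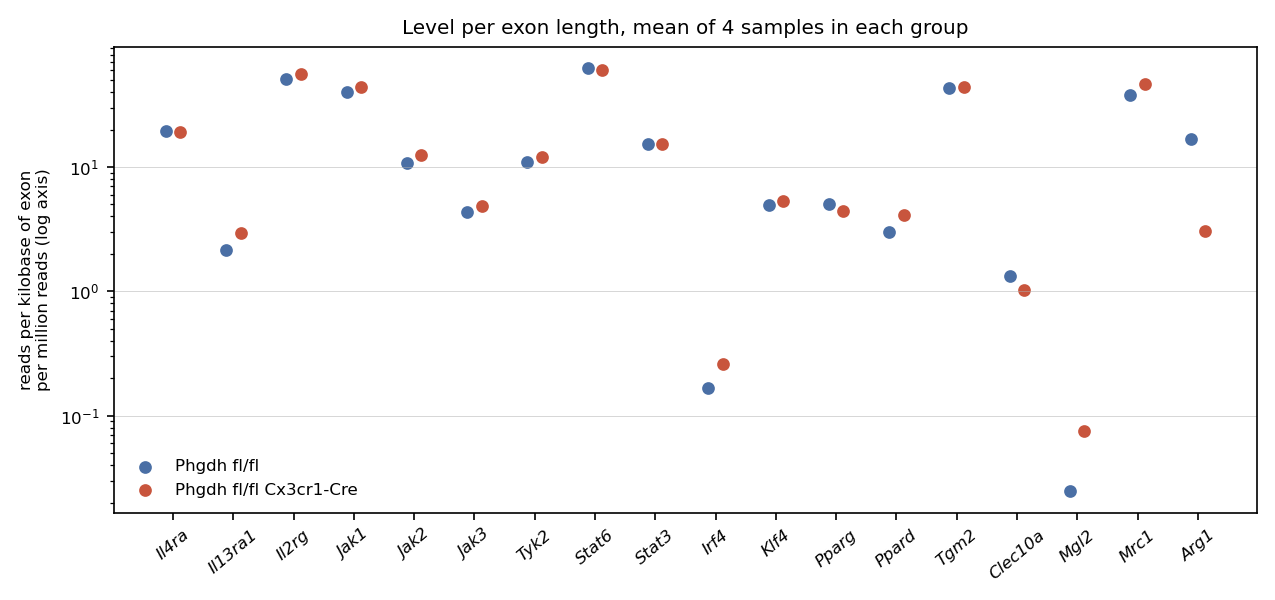
Mean level per exon length (RPKM, log axis) of the IL-4 pathway genes and markers in 4 Phgdh fl/fl (blue) and 4 Phgdh fl/fl Cx3cr1-Cre (red) samples. *Stat6*, *Il2rg*, *Tgm2* and *Jak1* lie near the top, *Irf4* and *Mgl2* at the bottom, and the widest gap between the genotypes is that of *Arg1* (16.7 against 3.04).

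Of the 7 genes tested, 1 rose (*Irf4*), 2 fell (*Pparg* and *Stat6*) and 4 did not pass the test (*Il4ra*, *Stat3*, *Klf4* and *Tgm2*). A call here is a limma adjusted p under 0.05, which 41.0% of all 13629 genes reached (20.8% higher and 20.3% lower with Cre), so 3 of 7 is a share near that background. The groups did not overlap for the same 3 genes, against 36.7% of all genes tested. The median log2 fold change of the 7 genes was -0.012, beside -0.0018 for all genes. None came near *Arg1*, which went from 1481 to 1662 normalized counts in the control to 252 to 317 with Cre (log2 fold change -2.47, SE 0.063, limma adjusted p = 4.68e-17).

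**Figure D2:**
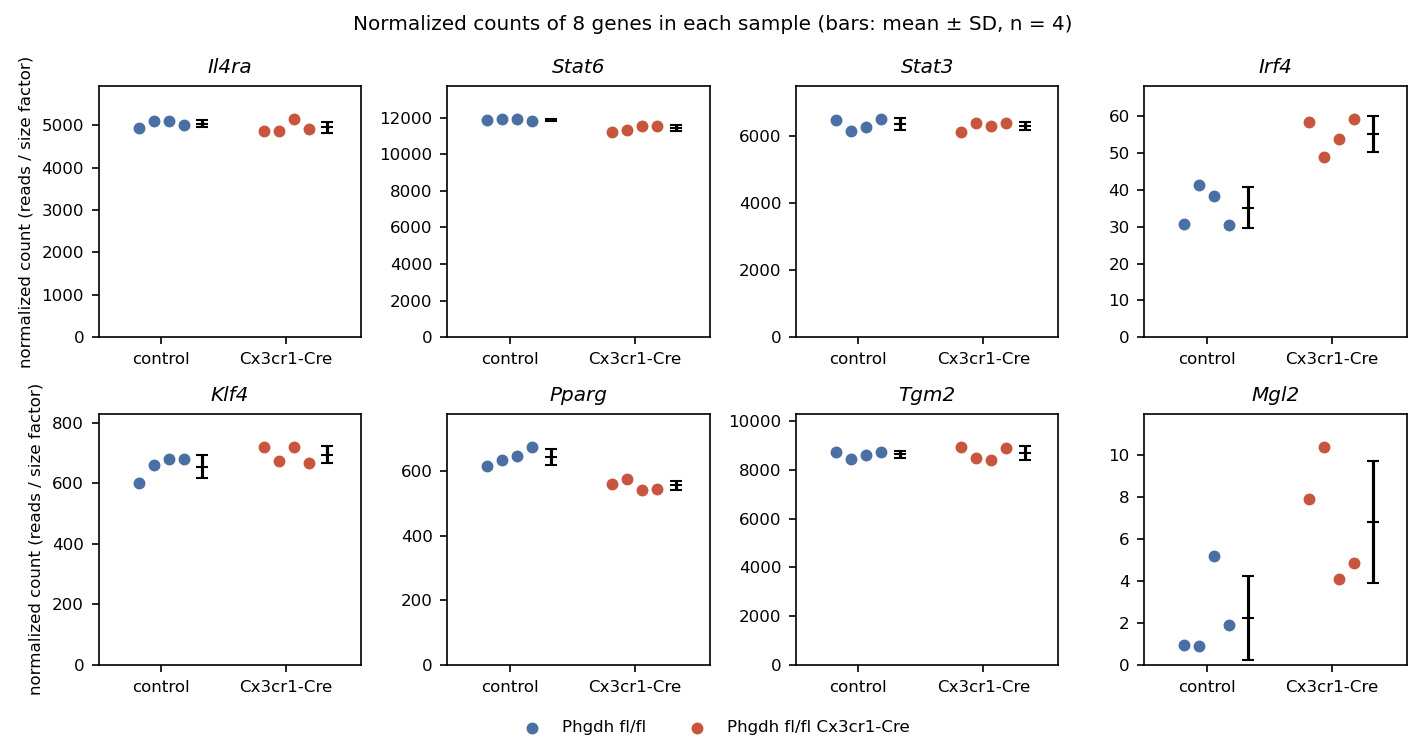
Normalized counts (reads divided by the size factor, axes from 0) of the 8 genes with a row, 1 point per sample, with bars for the mean ± SD of 4 samples. *Irf4* is higher and *Pparg* lower in every Cx3cr1-Cre sample than in any control sample, *Stat6* is lower by a small step, and the other 5 overlap.

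The receptor chain *Il4ra* (chr7:125552120-125579474, plus strand) had 4930, 5106, 5109 and 5011 normalized counts in the control and 4870, 4859, 5152 and 4920 with Cre. The groups overlapped, with the third Cre sample above every control sample. Its log2 fold change was -0.026 (95% interval -0.080 to 0.028, limma adjusted p = 0.451; exact two-sided permutation p = 0.286). An antisense transcript, *Gm44876*, shares 571 exon bases with it, and whether strand was used in counting is not given in the sources used here.

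Its partners moved. *Il13ra1*, the chain that completes the type II receptor, lay between 336 and 369 normalized counts in the control and between 449 and 488 with Cre, a log2 fold change of 0.42 (SE 0.059, limma adjusted p = 6.65e-06). *Il2rg*, the common gamma chain of the type I receptor, was at 5165 to 5380 in the control and at 5574 to 5846 with Cre (0.12, SE 0.025, adjusted p = 0.000836 by limma). For both chains all 4 Cre samples lay above all 4 control samples. The groups did not overlap, in either direction, for 36.7% of all genes tested.

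Below the receptor, the 4 Janus kinases rose together by small steps. The log2 fold change was 0.20 for *Jak2* (SE 0.031), 0.14 for *Tyk2* (SE 0.028), 0.13 for *Jak3* (SE 0.043) and 0.12 for *Jak1* (SE 0.022). *Jak3*, the partner of the gamma chain, was the least firm of them: its groups overlapped, its limma adjusted p was 0.0172, and it missed the threshold in 3 of 19 alternatives, 2 of which left out 1 library (control replicate 2 or Cx3cr1-Cre replicate 1). Over the IL-4 receptor and STAT6 list as a whole, 9 of 13 genes rose and 2 fell, beside 20.8% and 20.3% of all genes tested, and the median log2 fold change was 0.13. The risers included the adaptor *Irs2* (0.60, SE 0.077), which carries the receptor's signal to PI3K, and 2 restraints on JAK-STAT signalling, the STAT-induced inhibitor *Cish* (0.39, SE 0.10) and the phosphatase *Ptpn1* (0.19, SE 0.025). *Ptpn6*, the phosphatase SHP-1, fell (-0.17, SE 0.023), and *Socs1* did not pass the test (-0.21, SE 0.19, limma adjusted p = 0.418). No row was present for *Il4*, *Il13* or the decoy receptor *Il13ra2*.

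*Stat6* (chr10:127642986-127660957, plus strand) had 11882, 11924, 11949 and 11836 normalized counts in the control and 11236, 11330, 11566 and 11560 with Cre. Every Cre sample lay below every control sample, and the mean fell by 3.99%. The log2 fold change was -0.059 (SE 0.021, 95% interval -0.10 to -0.015, limma adjusted p = 0.0293). The call was lost in 7 of 19 alternatives, among them scaling to total reads (-0.044, limma adjusted p = 0.106), quantile normalization (0.0600) and leaving out control replicate 2 (0.0585), control replicate 3 (0.0615), Cx3cr1-Cre replicate 1 (0.0897) or Cx3cr1-Cre replicate 2 (0.0835), so the fall of *Stat6* is at the edge of what 4 samples a group resolved here. Transcript level says nothing of the phosphorylated protein, which was not measured in these files.

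*Stat3* (chr11:100885098-100939540, minus strand) lay between 6142 and 6508 normalized counts in the control and between 6103 and 6383 with Cre. The groups overlapped almost wholly, and the log2 fold change of -0.012 (95% interval -0.065 to 0.041, limma adjusted p = 0.750) changed sign when reads were scaled to their totals (0.0032). Around it, 5 of the 11 genes of the IL-10, IL-6 and STAT3 list rose and 1 fell. Of all genes tested 20.8% rose and 20.3% fell, 41.0% in either direction. The cytokine *Il6* had 12.1, 20.2, 19.6 and 26.7 normalized counts in the control and 49.5, 28.1, 31.5 and 41.8 with Cre (log2 fold change 0.92, SE 0.25, limma adjusted p = 0.00568), a low level with wide spread. *Socs3*, the STAT3-induced inhibitor whose promoter is printed above, rose from 1010 ± 51.3 to 1403 ± 69.8 (SD, n = 4 each; 0.47, SE 0.044, limma adjusted p = 2.14e-08), and the kinase *Pim1*, another STAT3 target, rose by 0.39 (SE 0.030). Of the IL-10 receptor chains *Il10ra* rose (0.26, SE 0.022) and *Il10rb* fell (-0.12, SE 0.030), and the log2 fold change of *Il10* itself was -0.018 (SE 0.11, limma adjusted p = 0.912).

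Among other STAT genes of the lists, *Stat2*, a partner in interferon signalling, fell by 0.17 on the log2 scale (SE 0.024, limma adjusted p = 8.66e-06). *Stat5b* rose by 0.090 (SE 0.028, limma adjusted p = 0.0138), and *Stat4* and *Stat5a* did not pass the test.

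*Irf4* (chr13:30749226-30766976, plus strand), a transcription factor induced through STAT6, had 30.7, 41.4, 38.2 and 30.5 normalized counts in the control and 58.5, 48.8, 53.9 and 59.3 in Phgdh fl/fl Cx3cr1-Cre TEMs. All Cre samples lay above all control samples, and the means were 35.2 ± 5.48 and 55.1 ± 4.83 (SD, n = 4 each), a ratio of 1.57. The log2 fold change was 0.64 (SE 0.17, 95% interval 0.29 to 1.00, limma adjusted p = 0.00451; exact permutation p = 0.0286, the smallest that 4 against 4 samples allow). The call rests on 147 reads in the control and 213 with Cre, and it held in all 18 alternatives that could test the gene (adjusted p 0.00323 to 0.0185). Dendritic cells also express *Irf4*, *Mgl2* and *Pdcd1lg2*, and the part of the low dendritic cell markers, given above, in these values was not tested. *Kdm6b*, which encodes the demethylase JMJD3, rose by 0.27 (SE 0.044, limma adjusted p = 3.57e-05).

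Of the 7 other interferon regulatory factors tested, 4 fell and 3 did not pass, where 20.8% of all genes tested rose and 20.3% fell. *Irf5*, a factor of the pro-inflammatory state, fell by 0.33 on the log2 scale (SE 0.022), *Irf8* by 0.20 (SE 0.023), *Irf3* by 0.11 (SE 0.034) and *Irf9* by 0.085 (SE 0.030). The calls of the last pair were not firm: *Irf9* lost its call without control replicate 2 or 3 or Cx3cr1-Cre replicate 2 or 4 (limma adjusted p 0.061 to 0.137) and *Irf3* without Cx3cr1-Cre replicate 3 (0.0506). The genes whose centred log2 values were most like those of *Irf4* over the 8 samples were *Gbp4* and *Elovl7*, with mean absolute differences of 0.0727 and 0.0937.

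*Klf4* (chr4:55527143-55532466, minus strand), the zinc finger factor that cooperates with STAT6, had 600, 659, 681 and 680 normalized counts in the control and 721, 673, 719 and 665 with Cre. The first control sample was the lowest of the 8, and the groups otherwise overlapped. The log2 fold change of 0.086 (95% interval -0.022 to 0.19, limma adjusted p = 0.198; exact permutation p = 0.229) went down to 0.044 without that sample. Of 5 other KLF genes tested, *Klf2* fell by 0.41 on the log2 scale (SE 0.054, limma adjusted p = 3.35e-06) and *Klf10* by 0.16 (SE 0.025). *Klf6* rose by 0.12 (SE 0.024), and *Klf3* and *Klf13* did not pass, where 41.0% of all genes tested were called. Nearest to *Klf4* in pattern were *Usf2* and *Rida* (mean absolute differences 0.0274 and 0.0286).

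*Pparg* (chr6:115360951-115490399, plus strand), the lipid-sensing nuclear receptor that sustains alternative activation, had 615, 636, 648 and 676 normalized counts in the control and 561, 575, 543 and 545 in Phgdh fl/fl Cx3cr1-Cre TEMs. Each Cre sample lay below each control sample, with means of 644 ± 25.5 and 556 ± 15.1 (SD, n = 4 each), and the mean fell by 13.7%. The log2 fold change was -0.21 (SE 0.049, 95% interval -0.31 to -0.11, limma adjusted p = 0.00146; exact permutation p = 0.0286), and the call held in all 19 alternatives. *Rheb* and *Hmox2* were the genes most like it over the 8 samples (mean absolute differences 0.0204 and 0.0213).

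Its relative *Ppard* went the other way. PPARδ, which shares the DNA response element and the partner RXR with PPARγ, had 963, 983, 969 and 987 normalized counts in the control and 1372, 1363, 1251 and 1363 with Cre, a log2 fold change of 0.45 (SE 0.039, limma adjusted p = 7.28e-09). *Rxra*, the common partner, rose by 0.23 (SE 0.031). Per exon length the 2 receptors came close to each other with Cre, where *Pparg* was at 4.39 and *Ppard* at 4.15 RPKM, against 5.03 and 2.996 in the control.

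All 7 lipid genes taken as PPARγ targets passed the test, 5 lower and 2 higher, against 41.0% of all genes called, with a median log2 fold change of -0.31. *Angptl4*, an inhibitor of lipoprotein lipase and a target of all PPARs, had 84.6, 82.8, 120 and 115 normalized counts in the control and 31.5, 27.0, 35.6 and 35.01 with Cre (log2 fold change -1.60, SE 0.16, limma adjusted p = 1.09e-07). *Plin2*, the lipid droplet coat protein, fell from 41297 ± 1000 to 25543 ± 623 (SD, n = 4 each; -0.69, SE 0.024, limma adjusted p = 5.67e-15). The scavenger receptor *Cd36* fell by 0.45 on the log2 scale (SE 0.024), the fatty acid importer of mitochondria *Cpt1a* by 0.31 (SE 0.026) and the lipoprotein lipase *Lpl* by 0.30 (SE 0.028).

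The fatty acid binding proteins were the exceptions. *Fabp5* went from 12640 to 12985 in the control to 18024 to 20310 with Cre (log2 fold change 0.57, SE 0.028, limma adjusted p = 1.75e-12), and *Fabp4* rose by 0.41 (SE 0.029). *Fabp4* and *Fabp5* thus went against the direction of *Pparg*, and *Angptl4*, *Plin2*, *Cd36*, *Cpt1a* and *Lpl* went with it. For none of the 7 genes did the groups overlap, as was the case for 36.7% of all genes tested.

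**Figure D3:**
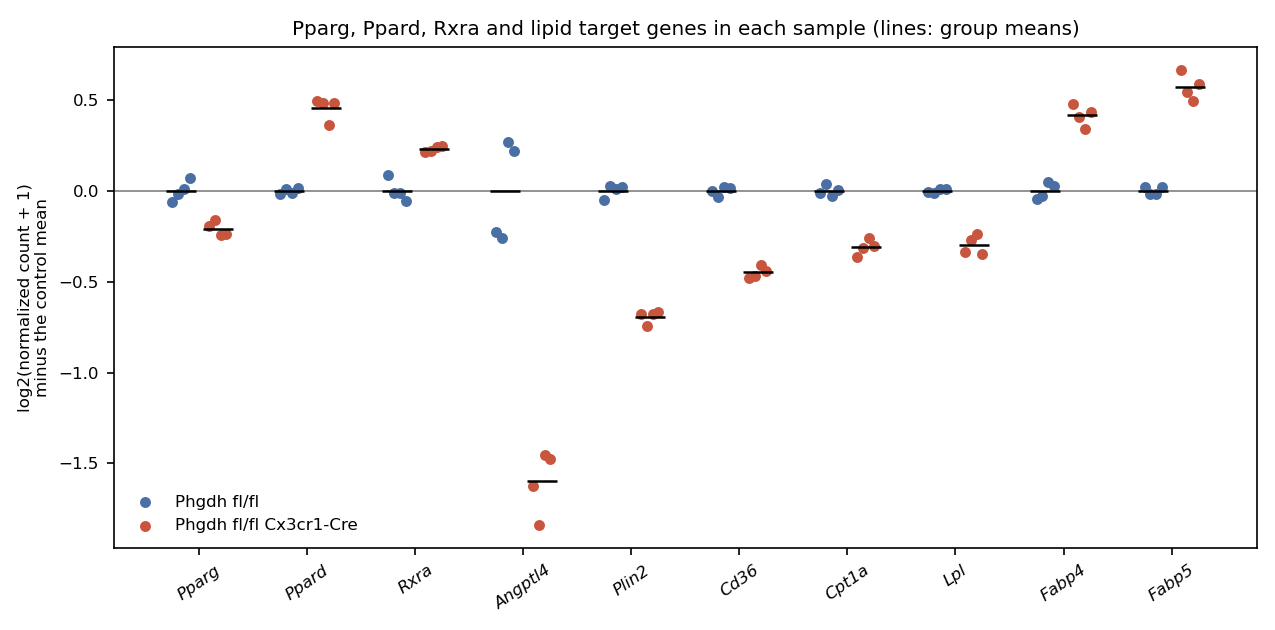
log2(normalized count + 1) of each sample minus the control mean for *Pparg*, *Ppard*, *Rxra* and the 7 lipid targets, with lines for the group means of 4 samples. *Pparg* and 5 targets lie below 0 in every Cx3cr1-Cre sample, while *Ppard*, *Rxra*, *Fabp4* and *Fabp5* lie above it.

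Over the 15 transcriptional regulators tested, with *Irf4*, *Klf4* and *Pparg* among them, 5 rose, 4 fell and 6 did not pass; of all genes tested 20.8% rose and 20.3% fell. *Maf*, which drives *Il10* and the resident macrophage program, fell from 25638 ± 446 to 19577 ± 1183 (SD, n = 4 each; log2 fold change -0.39, SE 0.031, limma adjusted p = 2.81e-09). *Myc*, which is induced in alternative activation of human macrophages, fell by 0.38 (SE 0.040, limma adjusted p = 1.30e-07), and *Cebpa* by 0.14 (SE 0.031). *Cebpb*, *Egr2*, *Batf3* and *Ppargc1b* were among those that did not pass the test.

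The effector *Tgm2* (chr2:158116402-158146436, minus strand), a protein-crosslinking transglutaminase that marks alternative activation in mouse and human macrophages, had 8741, 8459, 8583 and 8743 normalized counts in the control and 8951, 8499, 8409 and 8879 with Cre. In each genotype replicates 1 and 4 were the higher samples, and the groups overlapped. The log2 fold change was 0.0085 (95% interval -0.043 to 0.060, limma adjusted p = 0.819), and its sign changed when control replicate 2, Cx3cr1-Cre replicate 1 or Cx3cr1-Cre replicate 4 was left out. On the other strand, *Rprd1b* and *Gm20412* share 370 and 633 exon bases with *Tgm2*. Of its relatives, *F13a1*, the coagulation factor XIII chain expressed in alternatively activated macrophages, fell from 1411 ± 108 to 865 ± 49.7 (SD, n = 4 each; -0.70, SE 0.050, limma adjusted p = 4.59e-10), while *Tgm1*, at 38.8 to 54.9, rose by 0.51 (SE 0.18, limma adjusted p = 0.0287), a call lost with DESeq2 (adjusted p = 0.0607) and without control replicate 3 (0.106), Cx3cr1-Cre replicate 1 (0.0953) or Cx3cr1-Cre replicate 2 (0.0580).

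*Mgl2* (chr11:70130329-70137550, plus strand), which encodes the galactose-binding lectin CD301b, was near the floor of detection. Its reads were 1, 1, 5 and 2 in the control and 7, 10, 4 and 5 with Cre. These 9 and 26 reads give a ratio of 3.16 per read sequenced, with an exact 95% interval of 1.43 to 7.66 that covers counting error only. The groups overlapped, since the third control sample lay above 2 Cre samples, and the exact permutation test over samples gave p = 0.0857. The mean of 4.52 normalized counts was below the filter, and without a filter the limma adjusted p was 0.0368. Its neighbour and near relative *Clec10a* (CD301a) shares 148 of the 2255 windows of 75 bases, the read length, in the *Mgl2* transcripts, and reads there could not be assigned to either with certainty.

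*Clec10a* had 163, 171, 160 and 176 normalized counts in the control and 141, 120, 134 and 111 with Cre. All Cre samples were lower, with a log2 fold change of -0.41 (SE 0.099, limma adjusted p = 0.00209), so the 2 CD301 genes had point estimates of opposite sign. Of the other relatives of the listed genes, *Retn*, at means of 2.47 and 4.78 normalized counts, was below the filter, and *Retnlb*, *Retnlg*, *Chil1*, *Chil4* and *Chia1* had no row.

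The wider set of IL-4-inducible effectors moved in both directions, with 4 of 15 genes higher and 4 lower and a median of 0.051 on the log2 scale. That share is near the 20.8% higher and 20.3% lower of all genes tested. *Mrc1*, the mannose receptor CD206, rose from 10426 ± 253 to 12623 ± 362 (SD, n = 4 each; 0.28, SE 0.025, limma adjusted p = 1.67e-08). *Il1rn*, the interleukin 1 receptor antagonist, rose from 4192 ± 165 to 7031 ± 504 (0.74, SE 0.039, limma adjusted p = 3.40e-12), and *Atp6v0d2*, a subunit of the proton pump of lysosomes, from 1956 ± 50.7 to 3081 ± 50.3 (0.66, SE 0.029, limma adjusted p = 3.13e-13). *Clec7a*, the beta-glucan receptor Dectin-1, rose by 0.37 (SE 0.035). Against these, *Arg1*, *Cd36*, *Clec10a* and the chemokine *Ccl22* (-0.36, SE 0.12) fell, although *Ccl22* lost its call with DESeq2 (adjusted p = 0.0546) and without control replicate 1 (0.0730) or 2 (0.0736) or Cx3cr1-Cre replicate 1 (0.0519) or 2 (0.0602). *Pdcd1lg2*, which encodes PD-L2, had 10.1 ± 2.04 normalized counts in the control and 17.5 ± 3.60 with Cre without overlap and missed the threshold (limma adjusted p = 0.0519), while edgeR with TMM gave an adjusted p of 0.0389. *Ccl17* and *Ear11* had no row, and *Ccl24* and *Alox15* were below the filter.

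**Figure D4:**
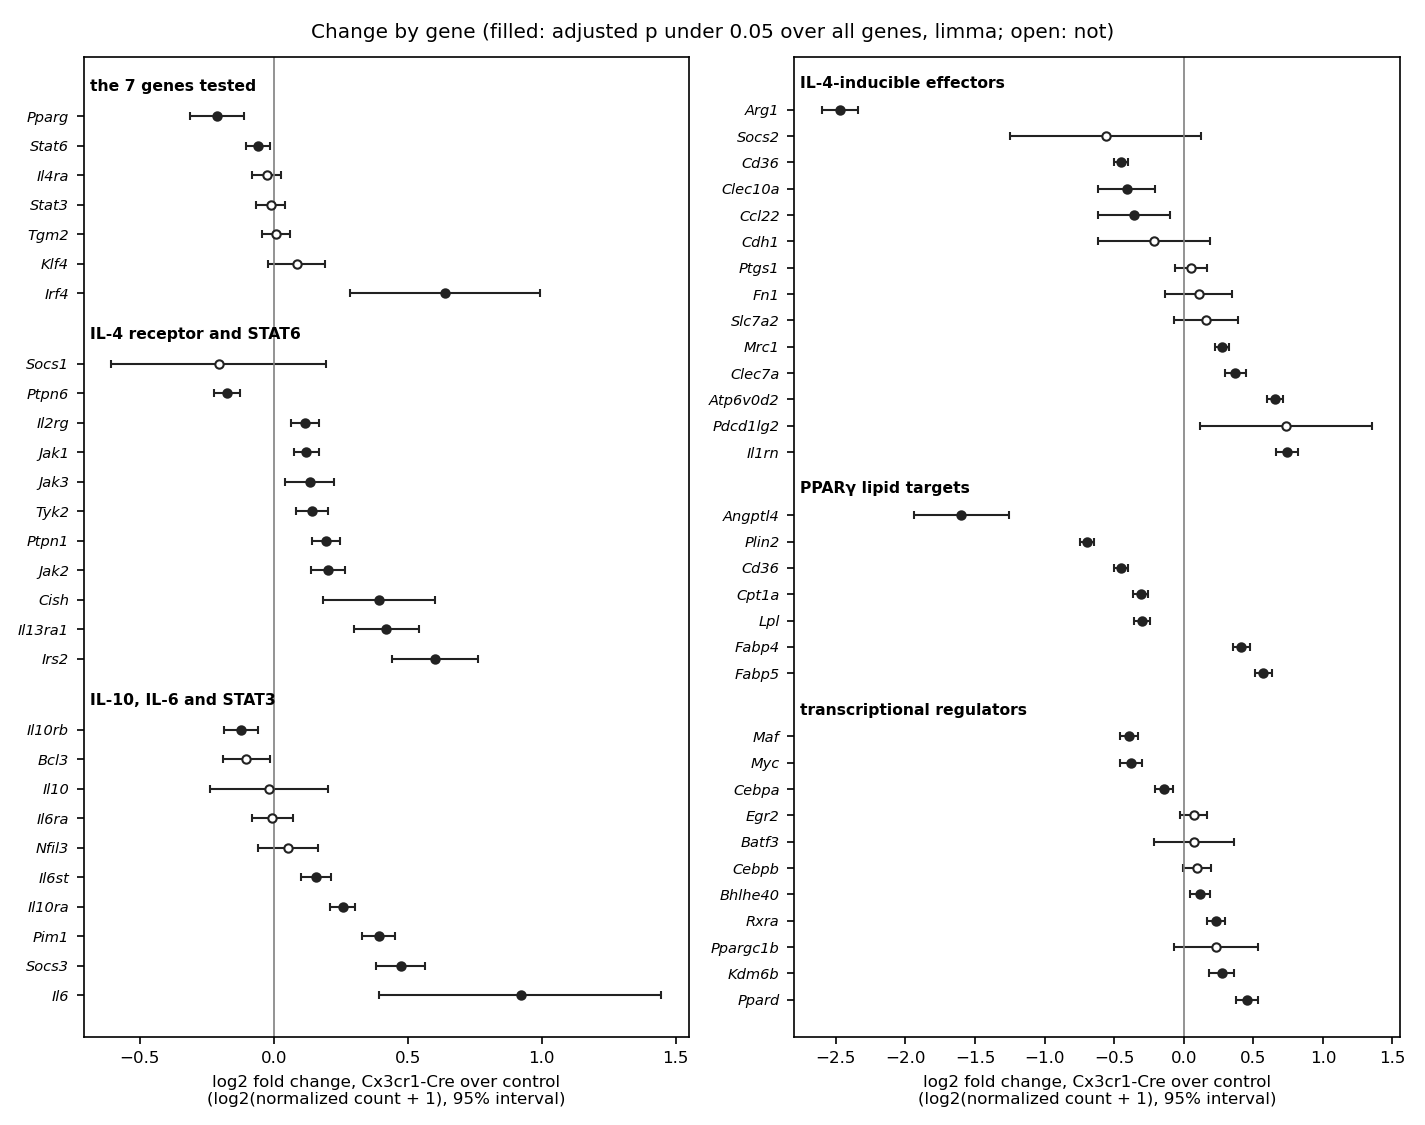
log2 fold change of Phgdh fl/fl Cx3cr1-Cre over Phgdh fl/fl TEMs with its 95% interval (limma, 4 against 4 samples) for the 7 genes tested and other genes of 5 lists, filled where the adjusted p was under 0.05. The kinases and partner chains of the IL-4 receptor lie right of 0 and *Il4ra* on it, and *Arg1* (-2.47) and *Angptl4* (-1.60) lie farthest to the left.

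Across the alternatives *Irf4* and *Pparg* kept both direction and call, *Il4ra*, *Klf4*, *Stat3* and *Tgm2* never passed the test, and *Stat6* passed in 12 of 19.

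**Figure D5:**
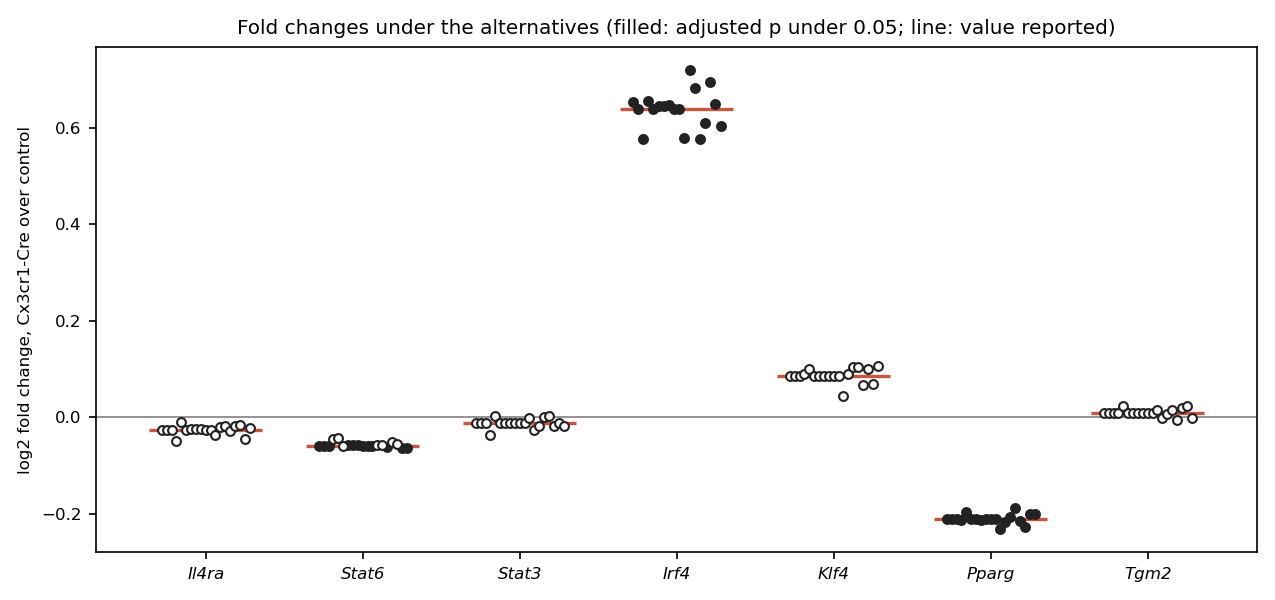
log2 fold change of the 7 genes under each alternative (1 point each, filled where the adjusted p was under 0.05) with a line at the value reported. *Irf4* stays between 0.58 and 0.72 and *Pparg* between -0.23 and -0.19, while *Stat6* stays below 0 with filled and open points.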

How the data were processed

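RNA-seq was measured in 4 samples of Phgdh fl/fl and 4 of Phgdh fl/fl Cx3cr1-Cre TEMs. The authors prepared directional libraries (NEBNext Ultra), mapped single-end reads of 75 bases to mm10 with TopHat2, counted them per gene with HTSeq 0.6 and used DESeq2. The deposited sample values are a signal, read counts divided by a size factor, although the paper speaks of FPKM; whole reads were recovered for 100% of 144353 values above 0 (tolerance 0.01 reads). The authors' log2 fold changes with their errors, Wald scores and p-values, deposited in the same table, were not used. Totals of 38219563 to 47027420 reads limit the precision of low genes by counting. Same-genotype samples differed by more than sampling noise (chi-square per gene 1.79 to 6.20; 21.0 to 35.6 between genotypes).

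Genotypes, as labelled, were compared with limma 3.58.1 (R 4.3.3; lmFit, eBayes with trend, two-sided) on log2(normalized count + 1), which understates the change of low genes, over genes that averaged 10 or more normalized counts. The Benjamini-Hochberg method was applied over all 13629 genes. Single genes were also tested by exact permutation over 70 labelings (scipy 1.17.1); because the labels call replicates biological but name no separate animals, p-values measure the spread between these samples. The fits were also run on simulated counts with 200 changed genes, and the outcome is not reported here. Those counts had the same dispersion for every gene and no split of replicates. The run therefore cannot vouch for calls near the threshold. Alternatives used edgeR 4.0.16 and DESeq2 1.42.0 on recovered reads and other settings given in the closing section. Positions and exon lengths came from GENCODE M21 (18629 of 18635 rows matched), promoters from RefSeq (GRCm38.p6).

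The 10 genes and the lists were chosen with earlier results of these data known. Named beside them were *Phgdh*, *Arg1*, receptor, kinase and family partners, from each list the 3 other genes with the largest absolute log2 fold change among those called without overlap, and for the 3 tested genes with the largest change the 2 genes most alike. Other genes were named as members of these lists after their values were seen, and some listed genes are not reported here.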

Additional observations from a re-analysis of the deposited data

Results flagged for a closer look

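Single samples were compared with the other 3 of their group for 31 genes named here, 62 groups in all, by Dixon's test. In 5 groups 1 sample stood apart at the 95% level, and chance gives about 1 in 20 groups. *Arg1* in control replicate 1 had 1481 normalized counts, against 1642 to 1662 in the other control samples. *Irs2* in control replicate 1 had 290.1, above the other 3, the lowest of which had 250.3. *F13a1* in control replicate 3 had 1570, the highest of its group. *Ppard* in Cx3cr1-Cre replicate 3 had 1251, below the other 3, which lay between 1363 and 1372. *Plin2* in Cx3cr1-Cre replicate 2 had 24618, the lowest of its group. None of the 8 genes the report turns on was among them, and none of these 5 genes lost its call when that sample was left out.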

How the results depend on the processing

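Of the 768 values recomputed, 747 were classed as kept. For the value of a gene this means the same direction and side of the threshold. Counts of called genes are also among the 768. They were classed as kept while close to the reported count, even where a call was lost. Some genes named above, with *Irf9*, *Irf3*, *Ccl22* and *Pdcd1lg2* among them, are not among the 768. *Stat6* was no longer past the threshold with quantile normalization (-0.046, limma adjusted p = 0.0600), with scaling to total reads (-0.044, 0.106) and with eBayes without trend (-0.059, 0.0574); with 1 sample left out it lay between -0.065 and -0.051 and lost its call in 4 of 8 fits (limma adjusted p 0.0226 to 0.0897). Left-out samples took *Tgm2* from -0.0062 to 0.024 and *Stat3* from -0.027 to 0.0026, both across 0 and never called, and scaling to total reads gave *Stat3* 0.0032. *Mgl2* (difference of 1.37 on the log2 scale) passed only without the filter (1.37, limma adjusted p = 0.0368), and its left-out range was 1.17 to 1.75. The cause was not tested. The number of the 10 genes called lay between 2 and 4. *Irf4* and *Mgl2* could not be fitted at a minimum of 50, and *Mgl2* had no value under the count models, quantile normalization, eBayes without trend or the block. Genes with few reads limit what depth can resolve.

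The labels do not say that equal replicate numbers share an origin. Deviations of same-numbered samples correlated at 0.0628, 0.0977, 0.126 and 0.0776, and not every sample correlated best with its own number. With a replicate block 5597 genes were called against 5594, and the log2 fold changes were 0.64 for *Irf4* (limma adjusted p = 0.00833), -0.21 for *Pparg* (0.00289) and -0.059 for *Stat6* (0.0376); the block changed no call among the 7 genes.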
